A study of Rattus norvegicus with 3 samples.

Results

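The genes described here are 10 genes used as markers of vascular endothelial cells, Pecam1, Cdh5, Kdr, Flt1, Tek, Tie1, Cldn5, Esam, Vwf and Eng, chosen by their symbols from the 18425 genes of the deposited table, where all 10 were found. They were measured by RNA sequencing in 3 libraries of dissected retina from wild-type Sprague Dawley rats, with 1 library per condition. Each eye received 1 µl into the vitreous at postnatal day (P) 1, and the retinas were harvested at P4. The Buffer library had citrate buffer of pH 4.5, the vehicle of STZ, the Saline library had saline, and the STZ library had 10 µg of streptozotocin (STZ), a DNA-alkylating nitrosourea linked to a sugar. For its functional and histological work the study gave STZ to the right eye and buffer to the left eye of each rat, so the Buffer and STZ libraries may share animals. Whether they do, and the number of retinas in a library, are not given in the sources used here. The libraries held 21992702 (Buffer), 21977843 (Saline) and 22031249 (STZ) estimated reads.

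In rodents the retina is vascularised after birth. A superficial plexus of vessels grows outward from the optic nerve over a bed of astrocytes, led by endothelial tip cells that follow vascular endothelial growth factor (VEGF), and pericytes then cover the new tubes. Kdr (VEGFR2) and Flt1 (VEGFR1) are VEGF receptors, Tek (Tie2) is the angiopoietin receptor and Tie1 its partner, and Eng (endoglin) is a co-receptor for BMP and TGF-beta ligands. Cdh5 (VE-cadherin), Cldn5, Esam and Pecam1 sit at the contacts between endothelial cells, with Cldn5 the main claudin of the blood-retina barrier, and Vwf is a clotting protein stored in endothelial granules. Kdr transcripts are also known from neural progenitors of the rodent retina, and Pecam1 is also found on platelets and white blood cells. The comparison of STZ with its controls bears on the study's question of how STZ acts on the retina and on the growth of its vessels.

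In the STZ library, the junction genes Cldn5 and Cdh5 and the Tie receptor genes Tie1 and Tek held between 0.196 and 0.285 of the share of reads they had in Buffer, while the VEGF receptor genes Kdr and Flt1 held 0.757 and 0.834 of it. The count ratio, a gene's share of the reads in one library divided by its share in another, was below 1 for all 10 genes in STZ against Buffer and ranged from 0.196 for Cldn5 to 0.834 for Flt1, with a median of 0.447. Over the 14885 genes with a mean of at least 10 reads the median count ratio was 1.03. Against Saline, the 10 ratios ranged from 0.24 to 0.964, with a median of 0.455. Between the controls they ranged from 0.82 to 1.11, with a median of 0.959. In bulk tissue, fewer endothelial cells and less RNA per endothelial cell cannot be told apart. Markers of lens, pigment epithelium and hyaloid tissue also differed between the libraries, and the part of these tissues in the ratios was not tested. With 1 library per condition no difference has a replicate check, so no test was made. The 95% intervals cover counting error only. They treat each read as independent, and as the reads lack molecular identifiers they may be too narrow even for that.

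**Figure D1:**
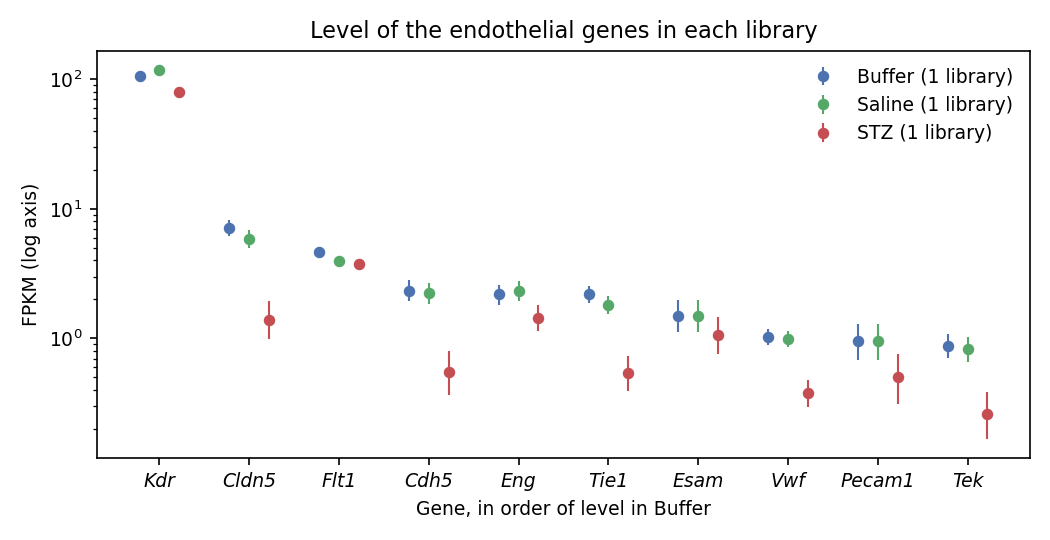
FPKM (a level per transcript length and library size, log axis) of the 10 genes in the Buffer, Saline and STZ libraries, with 95% Poisson counting intervals. Kdr lies between 80.2 and 117 FPKM and every other gene at or below 7.15, and the STZ point of each gene is the lowest of its 3.

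Among the junction genes, Cldn5 had 188 reads in Buffer, 154 in Saline and 37 in STZ, or 7.15, 5.87 and 1.4 FPKM, and later values for the 3 libraries keep that order. Cdh5 had 119, 114 and 28 reads, or 2.34, 2.24 and 0.55 FPKM. For both genes the STZ library stood below both controls, which differed by less than counting error, at a ratio of 0.82 for Cldn5 (0.658 to 1.02) and 0.959 for Cdh5 (0.735 to 1.25). The count ratio in STZ against Buffer was 0.196 for Cldn5 (95% counting interval 0.134 to 0.281) and 0.235 for Cdh5 (0.15 to 0.357). Against Saline it was 0.24 (0.163 to 0.345) and 0.245 (0.156 to 0.373). Pecam1, an adhesion receptor of the immunoglobulin family, had 40, 40 and 21 reads, with a ratio of 0.524 against Buffer (0.294 to 0.91). Esam, another adhesion protein of that family, had 52, 52 and 37 reads. Its ratio of 0.71 against Buffer had an interval of 0.453 to 1.1, so a difference in Esam was not detectable at this depth. The junction genes differed among themselves beyond counting error, as the upper bound for Cldn5 (0.281) lay below the lower bounds for Pecam1 and Esam.

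Both Tie receptor genes were low in STZ by similar ratios. Tie1 had 174, 144 and 43 reads, or 2.19, 1.82 and 0.54 FPKM, and Tek had 84, 79 and 24 reads, or 0.88, 0.83 and 0.26 FPKM. The count ratio against Buffer was 0.247 for Tie1 (0.172 to 0.346) and 0.285 for Tek (0.173 to 0.453). Tek's estimated counts are not whole in every library, so its interval leaves out the error of that estimation. The ratio of Tie1 to Tek, in FPKM, came to 2.49, 2.19 and 2.08. The change of this ratio between STZ and Buffer, 0.865 by counts, had an interval of 0.477 to 1.6, so no shift between the receptors was detectable.

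The VEGF receptors Kdr and Flt1 kept more of their level in STZ than the Tie receptors. This did not hold for all VEGF receptors. Flt4, named after its values were seen, had a ratio of 0.12 against Buffer (0.042 to 0.28). How much of the Kdr level came from neural progenitors, where its transcripts are also known, was not tested. Kdr had 13149, 14564 and 9972 reads, or 106, 117 and 80.2 FPKM, and Flt1 had 590, 510 and 493 reads, or 4.61, 3.98 and 3.73 FPKM. The Kdr ratio was 0.757 against Buffer (0.738 to 0.777) and 0.683 against Saline (0.666 to 0.701). For Flt1 it was 0.834 against Buffer (0.739 to 0.942) but 0.964 against Saline (0.85 to 1.09), where the interval holds 1. Flt1 was also the member whose controls differed beyond counting error in the downward direction, at 0.865 in Saline against Buffer (0.767 to 0.975), while Kdr differed upward, at 1.11 (1.08 to 1.13). The ratio of Kdr to Flt1, in FPKM, came to 23.0, 29.5 and 21.5, so the highest value was in a control.

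Vwf had 194, 186 and 72 reads, or 1.03, 0.99 and 0.38 FPKM. Its ratio of 0.37 against Buffer (0.279 to 0.488) lay between those of the Tie receptors and Pecam1. Eng had 128, 136 and 79 reads, or 2.19, 2.33 and 1.45 FPKM. Its ratio was 0.616 against Buffer (0.459 to 0.822) and 0.579 against Saline (0.433 to 0.77), so the interval for Eng lay wholly above those for Cldn5, Cdh5, Tie1 and Tek in STZ against Buffer.

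**Figure D2:**
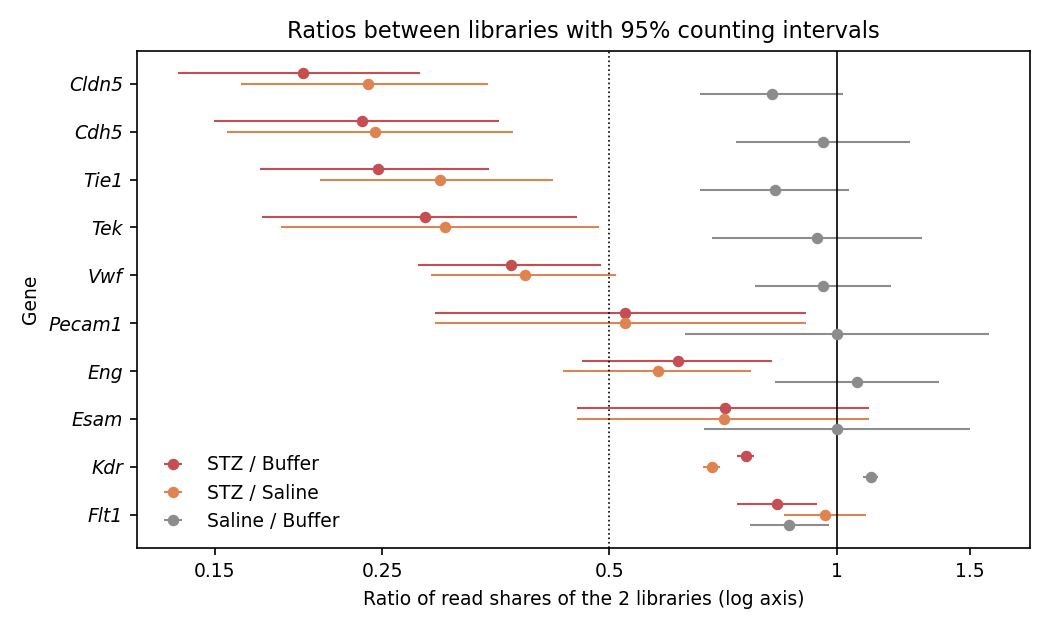
Count ratios of the 10 genes (log axis) for STZ against each control and for the controls against each other, with 95% counting intervals, ordered by the ratio to Buffer. The solid line marks 1 and the dotted line 0.5, and Cldn5, Cdh5, Tie1, Tek and Vwf lie left of 0.5 in both STZ comparisons, while no gene does between the controls.

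In STZ against Buffer, 5 of the 10 genes had a count ratio below 0.5 (Cldn5, Cdh5, Tie1, Tek and Vwf), a cut that was chosen after the values were seen. Of the 14885 genes with a mean of at least 10 reads, 1.57% did. Of the 5368 genes whose mean reads lay in the range of the members other than Kdr (33.7 to 531), 1.94% did. Against Saline, the same 5 genes were below 0.5, with 2.44% of the 14885 genes and 3.04% of the 5368. Between the controls, 0 of the 10 were, with 0.571% of the 14885 genes and 0.522% of the 5368. The interval lay below 1 for 9 of the 10 genes against Buffer, all but Esam, where it did for 18.8% of the 14885 genes and 11.1% of the 5368, and above 1 for 0, where it did for 26.2%. Against Saline it lay below 1 for 8, all but Esam and Flt1, where it did for 23.5% and 16.2%, and above 1 for 0, where it did for 26.9%. In Saline against Buffer it lay below 1 for Flt1 only (12% of the 14885 genes and 6.11% of the 5368) and above 1 for Kdr only (15.9%).

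The study's methods use the fold (FPKM + 1)/(FPKM + 1) with thresholds of 1.54 and 0.65. By this rule 3 of the 10 genes were lower in STZ than in Buffer, Cldn5 with a fold of 0.294, Cdh5 with 0.464 and Tie1 with 0.483, and 0 were higher. Of all 18425 genes, 1.04% were below 0.65 and 2.25% above 1.54, or 3.29% past either. Against Saline the same 3 genes passed, with folds of 0.349, 0.478 and 0.546, where 1.75% of all genes were below 0.65 and 2.04% above 1.54, or 3.78% past either, and 0.63% were below 0.65 against both controls. In Saline against Buffer 0 of the 10 passed in either direction, where 0.429% of all genes were lower and 1% higher. The added 1 FPKM weighs most on genes near 1 FPKM. With Tek at 0.88 FPKM in Buffer, the fold could not go below 0.532 even with no reads in STZ, and its fold was 0.67. Vwf had a fold of 0.68 and Pecam1 of 0.769, although their count ratios were 0.37 and 0.524. With 0.1 in place of 1, 6 of the 10 were below 0.65 against Buffer and 7 against Saline, with 4.51% and 6.89% of all genes. With CPM (counts scaled to a library of 1000000 reads) in place of FPKM, 5 and 6 were, with 1.28% and 2.56% of all genes, and with TPM, another level per length, 5 and 5 were, with 1.65% and 2.78%.

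Compared per length, the order of the levels also differed between the libraries. In Buffer the order from high to low was Kdr, Cldn5, Flt1, Cdh5, Eng, Tie1, Esam, Vwf, Pecam1 and Tek. The first 3 steps down exceeded the Poisson counting intervals, and from Cdh5 on each gene's interval met that of the next. In Saline the order was the same but for Eng, which stood above Cdh5 with overlapping intervals. In STZ, Cldn5 at 1.4 FPKM (0.986 to 1.93) had dropped below Flt1 at 3.73 (3.41 to 4.07) and beside Eng at 1.45 (1.15 to 1.81). Kdr stood apart from the other 9 genes in all 3 libraries. Its level was 45.3, 52.4 and 146 times that of Cdh5, a pair that was set side by side after the values were seen. By counts this ratio changed 3.22 times between Buffer and STZ (2.12 to 5.06) and 1.16 times between Buffer and Saline (0.886 to 1.51).

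Kdr also decided the summed reads. The 10 genes together held 669, 727 and 490 CPM, a ratio of 0.733 against Buffer (0.715 to 0.751) and 0.675 against Saline (0.658 to 0.691). Without Kdr the sums were 71.3, 64.4 and 37.9 CPM and the ratio against Buffer was 0.531 (0.487 to 0.577). Without Kdr and Flt1, a choice made after the values were seen, they were 44.5, 41.2 and 15.5 CPM. The ratio of these 8 genes was 0.348 against Buffer (0.306 to 0.394), 0.376 against Saline (0.331 to 0.426) and 0.925 in Saline against Buffer (0.844 to 1.01).

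Promoter sequences were taken from RefSeq for the assembly GRCr8, which had an entry for 5 of the 10 genes. They are shown for Cldn5, the gene with the lowest ratio, for Kdr, which kept most of its level, and for Eng, because its promoter holds letters bound by ETS factors, a family that acts at many endothelial genes. Each runs 5′ to 3′ on the strand of the gene and ends at the outer edge of the annotated gene. Cldn5 is from chr11:95718599-95718848 on the minus strand, Kdr from chr14:32571813-32572030 and Eng from chr3:36332029-36332189, both on the plus strand. Capitals mark CTTCCT, which is AGGAAG on the other strand.
Cldn5: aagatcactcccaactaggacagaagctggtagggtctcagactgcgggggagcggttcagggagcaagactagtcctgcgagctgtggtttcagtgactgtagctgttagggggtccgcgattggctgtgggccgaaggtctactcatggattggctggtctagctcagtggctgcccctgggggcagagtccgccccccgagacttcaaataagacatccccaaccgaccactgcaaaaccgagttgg
Kdr: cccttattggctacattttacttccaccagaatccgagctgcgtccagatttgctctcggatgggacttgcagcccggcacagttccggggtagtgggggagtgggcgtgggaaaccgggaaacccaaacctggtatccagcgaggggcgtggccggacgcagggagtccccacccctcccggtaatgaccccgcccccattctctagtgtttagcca
Eng: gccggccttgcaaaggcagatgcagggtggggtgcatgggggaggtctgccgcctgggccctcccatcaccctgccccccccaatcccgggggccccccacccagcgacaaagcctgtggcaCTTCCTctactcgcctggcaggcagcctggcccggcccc

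Over the full 250 bases before each start, searched on both strands, AGGAAG was present at Eng, Flt1 and Tie1 and absent at Cldn5 and Kdr, where 29.5% of 33469 promoters hold it. The related letters CGGAAG, which differ from it in the first base only, were in 0 of the 5 promoters and in 13.9% of all. The FOX letters GTAAACA and the SOX letters ACAATG were in 0 of the 5, and in 3.21% and 11.1% of all promoters. The TATA letters TATAAA were at Flt1 alone, with 12.9% of all. The 3 genes with AGGAAG had ratios of 0.616, 0.834 and 0.247 in STZ against Buffer, and Cldn5 and Kdr had 0.196 and 0.757. Whether the letters go with the ratio was not tested on these 5 promoters, and a match of letters describes the sequence only.

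A list of 25 other endothelial genes was set beside the 10, and 19 of them had a mean of at least 10 reads. Their median count ratio was 0.382 against Buffer, 0.333 against Saline and 0.909 between the controls. The ratio was below 1 for 17 of the 19 against Buffer, and the interval lay below 1 for 12 and above 1 for 0. Of the 14885 genes with a mean of at least 10 reads, 6431 had a ratio below 1 and 18.8% an interval below 1. By the study's fold rule 3 of the 25 were lower against each control, Egfl7 and Cd93 against both, Sox18 against Buffer alone and Clec14a against Saline alone. Of all 18425 genes, 1.04% were lower against Buffer and 1.75% against Saline. By count ratio, the intervals of Sox18 and Clec14a lay below 1 against both controls. Egfl7, a secreted endothelial matrix factor, had 59, 48 and 13 reads, and Cd93, an endothelial surface glycoprotein, had 203, 176 and 42. The genes of highest level in this list differed from these. Rasip1, a Rap1 effector of vessel lumen formation, had 142, 129 and 152 reads, with a ratio of 1.07 against Buffer (0.844 to 1.35), and Cd34, a sialomucin, had 72, 48 and 48, with 0.666 against Buffer (0.452 to 0.972) and 0.998 against Saline (0.655 to 1.52). Robo4 was listed at 0 in Buffer and STZ, and Gpihbp1 at 0 in both controls.

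**Figure D3:**
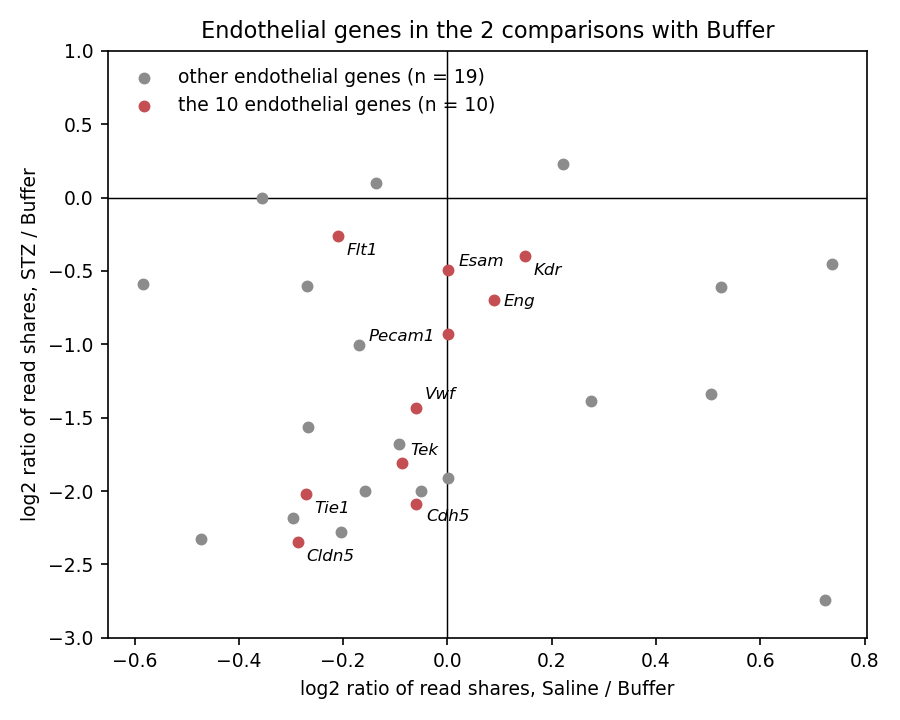
log2 count ratios in Saline against Buffer (horizontal) and STZ against Buffer (vertical) of the 10 genes and of the 19 other endothelial genes with a mean of at least 10 reads. Both axes share the Buffer library. All 10 genes lie below 0 on the vertical axis, and Cldn5, Cdh5 and Tie1 lie below -2, as do several of the other list, of which 17 of 19 lie below 0.

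The ligands of these receptors were not lower in STZ as a group. Of 10 ligand genes in the table, 0 passed either threshold of the fold rule in any comparison. The added 1 FPKM kept Angpt4, Gdf2 and Bmp10 from falling below 0.65 whatever their reads in STZ. The median count ratio of the 8 with a mean of at least 10 reads was 0.94 against Buffer and 1.03 against Saline. Against Saline the interval lay below 1 for 2 of the 8 and above 1 for 2, where it did for 23.5% and 26.9% of the 14885 genes. Angpt1, a ligand of Tek, had a ratio of 2.23 against Saline (1.43 to 3.55) and 1.39 against Buffer (0.948 to 2.06). Vegfa, which encodes the ligand of Kdr and Flt1, had 8902, 8772 and 8346 reads, a ratio of 0.936 against Buffer (0.908 to 0.964). Vegfb, a ligand of Flt1, had 395, 401 and 532 reads and a ratio of 1.34 (1.18 to 1.53), with counts that are not whole. The co-receptors and partners had a median of 0.972 against Buffer over 10 genes, with 0 past the fold rule. Ctnnb1 and Ctnnd1, the catenins that bind cadherins in many cell types, had ratios of 1.05 (1.03 to 1.07) and 0.94 (0.906 to 0.974). Within this list Flt4, the VEGF-C receptor VEGFR3, was singled out after its values were seen, with 50, 40 and 6 reads and a ratio of 0.12 against Buffer. Even with no reads in STZ its fold could not go below 0.645 against Buffer and 0.694 against Saline, so the fold rule could hardly call it.

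Genes of vessel growth and of vessel type were counted in the same way. The count ratio against Buffer was below 1 for 9 of 10 tip cell genes and 10 of 11 arterial, venous and flow genes with a mean of at least 10 reads. It was below 1 for 6431 of all 14885 such genes. The interval lay below 1 for 6 of the 10 and 3 of the 11, where it did for 18.8% of the 14885. Of 12 tip cell and sprouting genes, 2 were lower by the fold rule against Buffer, Apln and its receptor Aplnr, and 1 against Saline, Dll4, and the median count ratio was 0.744 and 0.644. In this list Cxcr4, a chemokine receptor, had 2143, 2088 and 1569 reads, and Dll4, a Notch ligand of tip cells, had 1174, 1411 and 890. Both genes are also active in neural cells of the developing retina. Of 12 arterial, venous and flow genes, 0 passed against Buffer and 3 were lower against Saline, Efnb2, Ephb4 and Id3, with a median count ratio of 0.925 and 0.667. Efnb2, an arterial ephrin, had 582, 920 and 445 reads and Id1, a BMP target, 683, 728 and 633, so that for Efnb2 the Saline library stood apart. It also did for Id3, with 323, 558 and 300 reads. Ephb4 had 286, 308 and 167 reads, with a ratio of 0.583 against Buffer (0.479 to 0.708) and 0.541 against Saline (0.445 to 0.655). Of 20 blood-retina barrier genes in the table, 2 were lower and 1 was higher against each control, with a median count ratio of 0.877 and 0.734. Of all 18425 genes, 1.04% were lower and 2.25% higher by the fold rule against Buffer, and 1.75% and 2.04% against Saline. Of 19 barrier genes with a mean of at least 10 reads, 11 had a ratio below 1 against Buffer and 8 above. The interval lay below 1 for 8 and above 1 for 3, where 26.2% of the 14885 genes lay above 1. Among the 3 was Ocln, named after its values were seen, with 23, 72 and 53 reads. Slc38a5 passed the fold rule against Buffer alone, with 40, 25 and 7 reads. Its count ratio against Saline was still 0.279 (0.102 to 0.664). Itm2a was lower against Saline alone, with 1442, 2678 and 1445 reads. Slco1c1, a thyroid hormone transporter, had 48, 84 and 10 reads. Ndp, which encodes the Wnt-pathway ligand norrin, was higher with 330, 233 and 582. Slc2a1 and Slc7a5, a glucose and an amino acid transporter, had ratios of 0.688 (0.668 to 0.709) and 1.09 (1.05 to 1.14) against Buffer.

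The cells that accompany endothelium were compared in the same way. Of 16 pericyte and mural cell genes, 4 were lower against Buffer and 3 against Saline, with 0 higher, and the median count ratio over 14 genes was 0.802 and 0.811. Of all 18425 genes, 1.04% and 1.75% were lower by the fold rule and 2.25% and 2.04% higher. The interval against Buffer lay below 1 for 7 of the 14 and above 1 for 2. It did for 18.8% and 26.2% of the 14885 genes with a mean of at least 10 reads. Pdgfrb passed the fold rule against Buffer alone. Against Saline its fold was 0.657 and its count ratio 0.429 (0.322 to 0.567). Lower by the fold rule against both controls were Rgs5, with 54, 44 and 22 reads, Acta2, with 32, 32 and 9, and Higd1b, with 11, 12 and 3. The interval of Higd1b holds 1 against Buffer (0.0488 to 1.03). The ratio was above 1 for 5 of the 14 against Buffer and 3 against Saline. Among these, and named after their values were seen, Myh11, the myosin of smooth muscle, had 317, 230 and 406 reads, a ratio of 1.28 against Buffer (1.10 to 1.49) and 1.76 against Saline (1.49 to 2.08). Tagln, another smooth muscle gene, had 15, 31 and 31 reads. The members of highest level, Mcam and Ndufa4l2, had ratios of 0.731 (0.681 to 0.783) and 0.873 (0.764 to 0.998). Of 8 retinal astrocyte genes, 3 were lower by the fold rule against Buffer and 4 against Saline, with 0 higher and a median count ratio of 0.632 and 0.499. The same shares of all genes, 1.04% and 1.75% lower, apply here. The interval against Buffer lay below 1 for 4 of the 7 astrocyte genes with a mean of at least 10 reads, and above 1 for 0. Gfap passed the fold rule against Saline alone, but its count ratio against Buffer was 0.632 (0.53 to 0.752). Pax2, a transcription factor of optic nerve and retinal astrocytes, had 57, 53 and 10 reads. Pdgfra, the receptor of the astrocyte mitogen PDGF-A, had 650, 581 and 269, and S100b had 70, 87 and 35. Cd44 and Igfbp5, the genes of highest level in this list, had ratios of 0.978 (0.928 to 1.03) and 0.998 (0.842 to 1.18).

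**Figure D4:**
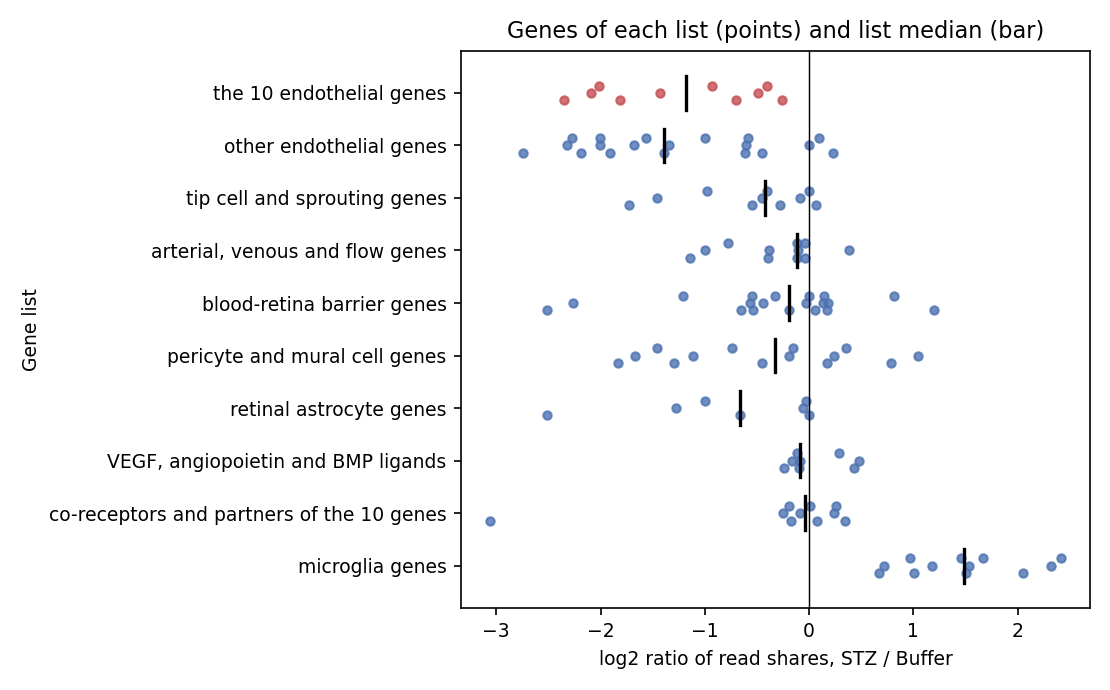
log2 count ratio in STZ against Buffer of each gene with a mean of at least 10 reads (points) in 10 lists, with the list median (bar). The 10 endothelial genes have a median of -1.18 and the other endothelial genes of -1.39, the VEGF, angiopoietin and BMP ligands of -0.09, and all 12 microglia genes lie above 0.

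Markers of other tissues also differed between the libraries, beside the endothelial results. All 12 microglia genes had an interval above 1 in STZ against both controls, and their summed level was 71.0, 80.7 and 163 CPM, with none at 0. Of the 14885 genes with a mean of at least 10 reads, 26.2% had such an interval against Buffer and 26.9% against Saline. By the fold rule 9 of the 12 microglia genes were higher against both, among them Aif1, Csf1r, Cx3cr1, C1qa, Tmem119, Trem2, Tyrobp and Cd68. For this list and those that follow, 2.25% of all 18425 genes were higher against Buffer and 2.04% against Saline. Lower were 1.04% and 1.75%, and in Saline against Buffer 1% were higher. The 15 lens crystallin genes summed to 13.1, 36.8 and 224 CPM, with Cryba2 and Crybb2 at 0 in Buffer. Of these, 13 were higher against Buffer and 12 against Saline, the 12 being Cryaa, Cryba1, Cryba2, Cryba4, Crybb1, Crybb3, Cryga, Crygb, Crygc, Crygd, Cryge and Crygf, and 11 were higher in Saline than in Buffer. The 12 pigment, ciliary and iris epithelium genes summed to 457, 755 and 391 CPM, with Rpe65 at 0 in Buffer. In this list 0 passed against Buffer, 7 were lower in STZ than in Saline and 8 were higher in Saline than in Buffer. Its genes of highest level, Rlbp1 and Aldh1a1, had 6996, 6571 and 5501 and 1904, 6838 and 1904 reads. The 11 red cell and platelet genes in the table summed to 50.7, 69.2 and 38.9 CPM, with Hba1 at 520, 705 and 372 reads and Hbb at 435, 561 and 326, globin genes that have near-identical copies and counts that are not whole. In this list 1 was lower and 2 were higher against Buffer and 4 were lower against Saline, with Hba-a1 lower against both at 9, 10 and 4 reads. Gp1bb and Pf4 were among those at 0 in Buffer, and Gp1bb was at 0 in Saline. The 8 hyaloid and fibroblast genes summed to 238, 324 and 170 CPM, with Col1a2 and Lum at 0 in Buffer and Dcn at 0 in STZ. Here 2 were lower and 1 was higher against Buffer and 3 were lower against Saline, Pdgfra against both, and Col2a1 and Col9a1, of highest level, had 3074, 3328 and 2082 and 1131, 2726 and 1032 reads. The part of these tissues in the endothelial ratios was not tested.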

How the data were processed

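After trimming, the authors aligned reads by TopHat2, dropped those with several locations and computed values per gene with a custom R script. The submitters' processing notes name the build rn6, and the annotation is not given in the sources used here. They deposited FPKM, TPM and an estimated count per gene and library. The TPM entered only an alternative. The estimated counts were rounded to whole numbers for intervals, and 2858 genes have a fractional count. The tables of single libraries and the table of all 3 hold the same values.

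For a count ratio, each count was divided by its library total, and the interval at the 95% level is exact (Clopper-Pearson). Single levels have exact Poisson intervals. The change of a ratio of 2 genes between libraries is a conditional odds ratio. Totals of 21977843 to 22031249 reads limit the precision of genes with few reads. No count model was fitted and no p-value computed, since each condition has 1 library. The named genes are all 10 members, and of each list the genes past the same threshold against both controls and the 2 of highest mean FPKM, and other genes are named where a count is small. A few genes that this rule names are not reported here. The members and the 13 lists were chosen with earlier results of these data known. Planned protein comparisons were not run.

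Alternatives were another pseudocount, thresholds of 2 and 0.5, a minimum mean of 100 reads, CPM from the counts, TMM factors of edgeR 4.0.16, size factors of DESeq2 1.42.0 (R 4.3.3), and both controls averaged. Python 3.11.15 with numpy 2.4.6, pandas 2.3.3, scipy 1.17.1 and matplotlib 3.10.9 was used, and the calculations were tested on simulated data. Of 18425 identifiers, 17120 matched RefSeq.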

Additional observations from a re-analysis of the deposited data

How the results depend on the processing

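The number of members lower in STZ, 3 against Buffer and 3 against Saline, depended on the weight of low values. Against Buffer it was 6 with a pseudocount of 0.1, 5 with CPM, 5 with TPM, 9 where the counting interval excludes 1 and 5 with a count ratio below 0.5, the last chosen after seeing the data. Against Saline these numbers were 7, 6, 5, 8 and 5. Of all 18425 genes, the first 3 settings gave 4.51%, 1.28% and 1.65% against Buffer and 6.89%, 2.56% and 2.78% against Saline. Of the 5368 genes with mean reads like the members other than Kdr, the last 2 gave 11.1% and 1.94% against Buffer. Against Saline they gave 16.2% and 3.04%. With a minimum mean of 100 reads, which left 6 members, 2 were lower against each control. With thresholds of 2 and 0.5, 3 were lower against Buffer and 2 against Saline. In Saline against Buffer, 1 was lower and 1 higher where the interval excludes 1, in place of 0 and 0. The median log2 fold of the members was -0.48 in STZ against Buffer, -1.02 with a pseudocount of 0.1 and -1.18 as a count ratio, and against Saline -0.53, -0.995 and -1.15. With CPM it was -0.88 and -0.89. Over all genes with a mean of at least 10 reads the median log2 fold of FPKM + 1 was 0.03 and 0.01.

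The summed ratio in STZ against Buffer, 0.733, was 0.712 with TMM factors, 0.714 with DESeq2 size factors, 0.699 as a sum of FPKM, 0.531 without Kdr and 0.348 without Kdr and Flt1. Against Saline, 0.675 became 0.653, 0.588 and 0.376 with the last 3. In Saline against Buffer the ratio of 1.09 turned to 0.902 without Kdr and 0.925 without Kdr and Flt1. The other 77 of 102 such values stayed within the counting interval of the value (for medians, the median width of the members' intervals) or, for counts, within 1.5 times. No paired analysis was possible because each condition has 1 library, and for the same reason leaving out a replicate gives no value. Depth limits Pecam1, Tek, Cdh5, Cldn5 and Esam, with 21 to 37 reads in STZ.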

Other observations

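The genes whose 3-library pattern lay closest to the members were sought among 10153 other genes with whole-number counts and a mean of at least 100 reads, by the Euclidean distance between log2 ratios in Saline and STZ against Buffer. The summed members, mostly Kdr, lay closest to LOC103690112, Slc4a4, Nell1, Mex3d and Itga5, at distances of 0.00897 to 0.0171. This sum describes the members poorly, as 86.5% of the candidates lay within the median distance of the members themselves, 0.749. For the 8 genes without Kdr and Flt1, a choice made after seeing the data, 23 candidates (0.227%) lay within the members' median distance of 0.585. The closest was Pdgfrb, the PDGF receptor of pericytes, with 203 (Buffer), 172 (Saline) and 74 (STZ) reads at a distance of 0.142. Next came Adamts8, a secreted metalloprotease, with 399, 352 and 155 reads, and Pdgfra, with 650, 581 and 269 reads at a distance of 0.252. Ptar1 lay at 0.272. The 3 libraries give only 2 independent differences, and both share the Buffer library.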
